A study of Mus musculus with 2 samples.

Results

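Among the sorted cardiac macrophages of mice at day 3 after myocardial infarction were cells that held transcripts of both cell types: the complement and lipid-transport genes of a macrophage together with *S100a8*, *S100a9* and other genes of a neutrophil. These cells were chosen on measured values. A cell was taken when it had at least 5000 unique molecular identifiers (UMIs, 1 per captured transcript) and at most 10% mitochondrial UMIs, when the nuclear RNA *Malat1* made up at least 0.4% of its UMIs, when *S100a8*, *S100a9*, *Retnlg*, *Csf3r* and *G0s2* together made up at least 0.15%, and when *C1qa*, *C1qb*, *C1qc* and *Apoe* together had more UMIs than those 5. The rule found 455 of 18770 cells, 354 of 10624 in the WT library and 101 of 8146 in the library labelled CD40 KO, named the KO-labelled library in what follows. They are called carrier macrophages here. Their comparison set, called other macrophages, was 3932 WT cells and 1987 cells of the KO-labelled library that passed the same limits with the 4 macrophage genes at 0.15% or more and the 5 neutrophil genes under 0.15%.

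The study took CD45+CD11b+CD64+ cells from infarct and border zone of WT and CD40 KO hearts and made 1 Chromium 3′ v3 library per genotype. CD40 is a receptor of the tumour necrosis factor receptor family, and the series' title places it in efferocytosis. Not given in the sources used here are the CD40 allele, the number of mice behind each library, and their age, sex and strain. With 1 library per group no difference between the libraries has a replicate check, so no test was made, and every 95% interval covers counting error only. Differences between carrier and other macrophages repeat the contrast the rule made and are descriptions.

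Neutrophils reach an infarct within the first day and die there in large numbers, and macrophages engulf them by efferocytosis, using receptors such as MerTK and bridging proteins such as MFG-E8 before the corpse is broken down in lysosomes. S100A8 and S100A9 form calprotectin, one of the most abundant proteins of the neutrophil cytosol. *Retnlg* encodes a resistin-like secreted protein, *Csf3r* the receptor for granulocyte colony-stimulating factor, and *G0s2* an inhibitor of triglyceride breakdown.

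The sequence before the start site is shown for genes of either cell type. They are *S100a8* and *S100a9*, neighbours on chromosome 3, *Hdc*, the histidine decarboxylase gene that the rule did not use, and *Gpnmb*. The last is a gene of lipid-laden macrophages that the rule did not use either and that was not higher in these cells. Each run is 150 bases that end just before the annotated start, taken from RefSeq on GRCm38.p6 and written 5′ to 3′ on the gene's strand, with matches to the C/EBP motif TTNNGNAA in capitals.
S100a8, chr3:90668921-90669070, plus strand: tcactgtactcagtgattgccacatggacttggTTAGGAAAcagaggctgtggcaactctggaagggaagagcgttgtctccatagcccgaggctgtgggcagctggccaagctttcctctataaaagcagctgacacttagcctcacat
S100a9, chr3:90695722-90695871, minus strand: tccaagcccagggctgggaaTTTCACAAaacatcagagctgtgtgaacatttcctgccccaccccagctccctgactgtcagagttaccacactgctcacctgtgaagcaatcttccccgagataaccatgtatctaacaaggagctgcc
Hdc, chr2:126618679-126618828, minus strand: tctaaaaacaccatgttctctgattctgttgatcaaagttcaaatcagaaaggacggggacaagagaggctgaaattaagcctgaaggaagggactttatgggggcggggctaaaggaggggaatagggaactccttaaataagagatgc
Gpnmb, chr6:49036368-49036517, plus strand: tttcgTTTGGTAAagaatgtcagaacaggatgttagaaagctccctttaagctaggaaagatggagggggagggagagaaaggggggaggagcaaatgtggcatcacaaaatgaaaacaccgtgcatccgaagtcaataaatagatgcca
C/EBP factors are transcription factors of the myeloid lineage, as is PU.1, whose motif was searched as AGGAAGT. Both motifs were searched on both strands and without regard to overlap. Over RefSeq windows from 250 bases before to 50 bases after the start, the C/EBP motif was found in 15 of the 30 neutrophil genes that matched a window (50%), of 39 listed, in 8 of 14 macrophage genes (57.1%), and in 40.7% of all 27025 genes. The PU.1 motif was in 6 of the 30 (20%), 7 of the 14 (50%) and 9.57% of all genes. The printed windows of *S100a8*, *S100a9* and *Gpnmb* each hold 1 C/EBP match and that of *Hdc* none, and a match is no more than those letters.

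The WT library held 139343516 UMIs and the KO-labelled library 90057108, with medians of 9353.5 and 5346.5 per cell. Carrier macrophages contributed 8813044 and 2509215 of these. Their median depth was 20064.5 UMIs in WT (5531 to 77739) and 18805 in the KO-labelled library (5024 to 122686), against 14023.5 and 16860 in other macrophages. Their mitochondrial share was close to that of other macrophages, with medians of 2.20% against 2.38% in WT and 2.69% against 2.62% in the KO-labelled library. The libraries shared 23 cell barcodes, 1 of them a carrier macrophage. *Cd40* transcript was at 19.1 CPM (UMIs of the gene out of 1000000 in the class) in WT carrier macrophages and at 16.7 CPM in those of the KO-labelled library, and since a 3′ tag can lie outside a deletion this does not check the label.

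The genes of the rule give the size of what was chosen. *S100a8* was at 1180 CPM in WT carrier macrophages and 38.8 CPM in other macrophages, and at 1043 and 51.5 CPM in the KO-labelled library. *S100a9* was at 1872 against 63.8 CPM in WT and at 1338 against 59.3 CPM in the KO-labelled library. *Csf3r*, at 166 against 49.6 and 107 against 29.3 CPM, was separated least. *Retnlg* was at 119 against 1.19 CPM in WT and 98 against 3.04 CPM in the KO-labelled library, and *G0s2* at 309 against 24.5 and 297 against 16.5 CPM. The rule kept only cells with more UMIs of its macrophage genes than of its neutrophil genes. The levels of its macrophage genes in these cells were thus partly set by the choice. *Apoe*, the apolipoprotein, was at 8247 against 7182 CPM in WT and 4759 against 4312 CPM in the KO-labelled library. *C1qa*, a chain of complement C1q, was at 1886 against 1684 CPM and 1287 against 1322 CPM.

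The neutrophil share had no gap at the limit. The 10 WT carrier macrophages nearest the limit had 0.15% to 0.155% of their UMIs in the 5 genes and the 10 eligible cells just below it 0.143% to 0.147%. In the KO-labelled library the same ranges were 0.151% to 0.159% and 0.144% to 0.15%. The plot of macrophages by neutrophil share has its dip near 0.04% and an upper shoulder that begins under the limit. Between 0.05% and 0.15% lay 304 WT cells and 286 cells of the KO-labelled library, and these were unlike in depth. The WT cells had a median of 25836 UMIs, and 277 of them had at least 10000. Those of the KO-labelled library had a median of 8274 UMIs, and 108 had at least 10000. The carrier macrophages are the upper range of a continuous share, with medians of 0.315% in WT (highest 1.84%) and 0.231% in the KO-labelled library (highest 0.853%).

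**Figure D1:**
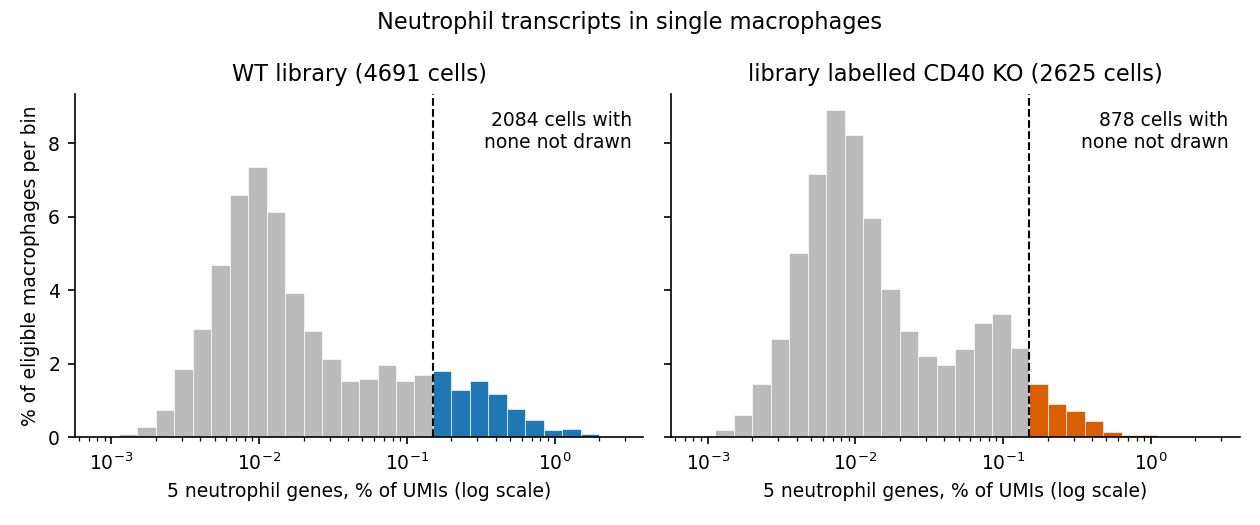
Eligible macrophages by the percent of their UMIs in the 5 neutrophil genes of the rule (horizontal, log scale), as the percent of all eligible macrophages of the library in each bin (vertical), for the WT library and the KO-labelled library; the dashed line is the limit of 0.15%, coloured bins are carrier macrophages, and cells with none of these UMIs (2084 and 878) are not drawn. The shoulder of cells with a raised share runs across the limit in both libraries. From 0.05% to 0.15% its cells had a median of 25836 UMIs in WT and 8274 in the KO-labelled library.

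Outside the rule, the neutrophil programme was present broadly. Of 34 listed neutrophil genes outside the rule, 31 reached the mean of 10 CPM used for counting in each library, and 27 in WT and 22 in the KO-labelled library were at least 1.5-fold higher in carrier macrophages, with 0 lower. The background was 3.54% of 7542 genes higher and 0.358% lower in WT, and 2.69% of 7621 higher and 1.88% lower in the KO-labelled library; since the rule used this contrast, nothing is read from the gap. The median log2 ratio of the list was 2.12 in WT and 1.2 in the KO-labelled library, beside −0.03 over all genes counted in each. A gene low in other macrophages could pass 10 CPM only through its level in the chosen cells. Of the 253 WT genes and 171 genes of the KO-labelled library that were higher among the 7321 counted in both, 135 were shared, 53.4% of the first and 78.9% of the second. Of the 20 WT genes and 121 genes of the KO-labelled library that were lower, 1 was shared, 5% and 0.826%.

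The listed receptors ranged widely. *Cxcr2*, the receptor for neutrophil-attracting chemokines, was at 31.5 CPM in WT carrier macrophages and 3.74 CPM in other macrophages, a log2 ratio of 3.08 (2.83 to 3.33), and at 19.9 and 1.58 CPM in the KO-labelled library, 3.66 (3.11 to 4.20). *Il1r2*, the decoy receptor for interleukin 1, was at 242 against 51.8 CPM in WT, a log2 ratio of 2.23 (2.15 to 2.30), and at 189 against 64.3 CPM in the KO-labelled library, 1.56 (1.41 to 1.70). *Trem1*, an amplifying receptor of myeloid inflammation, was at 121 against 28.1 CPM (2.11) and 120 against 51.4 CPM (1.23). The formyl peptide receptors *Fpr1* and *Fpr2*, which sense bacterial and mitochondrial peptides, had log2 ratios of 3.22 and 2.22 in WT and 2.90 and 1.59 in the KO-labelled library. The C-type lectin receptors *Clec4d* and *Clec4e* were already high in other macrophages, at 328 and 195 CPM in WT, and had small ratios of 0.61 and 1.16 there.

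Enzymes and secreted proteins of neutrophils held the highest ratios given here. *Hdc*, which makes histamine and is expressed by neutrophils as well as mast cells, was at 169 CPM against 22.7 CPM in WT, a log2 ratio of 2.89 (2.79 to 3.00), and at 173 against 18.4 CPM in the KO-labelled library, 3.23 (3.06 to 3.40). *Mmp9*, the gelatinase of neutrophil granules, was at 111 against 18.9 CPM (2.56) and 76.5 against 25.6 CPM (1.58). *Asprv1*, a protease gene, was at 45.8 against 2.45 CPM (4.23) and 43.8 against 1.95 CPM (4.49). *Stfa2l1*, a stefin of the cysteine protease inhibitors, had 4.32 and 4.09. *Lcn2*, the iron-siderophore binding lipocalin, was at 87.9 against 4.95 CPM (4.15) in WT and 43.4 against 6.99 CPM (2.64) in the KO-labelled library. *Il1b*, which macrophages of an infarct make too, was at 1372 against 573 CPM (1.26) and 1577 against 1087 CPM (0.54).

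The 4 listed genes under 1.5-fold in WT were under it in the KO-labelled library too. *Alox5ap*, needed for leukotriene synthesis, had log2 ratios of 0.18 in WT and 0.06 in the KO-labelled library, *Msrb1* 0.21 and 0.29, *Pilra* 0.55 and 0.28, and *Selplg*, the selectin ligand, 0.50 and 0.28. *Ly6g*, the antigen by which mouse neutrophils are commonly sorted, was at 3.63 CPM in WT carrier macrophages, with a UMI in 25 of 354, and in 1 of 101 of the KO-labelled library.

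Of the early granule genes, which neutrophils switch off before they leave the marrow, several were sparse. Of 13 granule genes, 6 were counted in WT, with 2 higher and 0 lower (median 0.11), and 7 in the KO-labelled library, with 4 higher and 1 lower (median 0.60). The share over all genes was 3.54% higher and 0.358% lower in WT, and 2.69% and 1.88% in the KO-labelled library. *Elane*, the elastase of primary granules, had no UMI in WT carrier macrophages, and *Mpo*, the myeloperoxidase gene, was at 0.45 CPM there. *Prtn3*, another primary granule gene, was counted as higher in WT (0.62) and as lower in the KO-labelled library (−0.59). *Mmp8*, also on the granule list, was at 54.7 against 46.5 CPM in WT. *Ngp*, a secondary granule gene, was at 4.88 CPM against 0.24 CPM in WT. *Lyz2*, the lysozyme gene of all mature myeloid cells, was at 4424 against 4703 CPM. *Chil3* differed by −0.01 in WT and 0.68 in the KO-labelled library, where 1 cell held 24.5% of its UMIs.

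Among the genes with the largest shared differences at 50 CPM or more were *Hdc*, *Acod1*, *Mmp9*, *Il1r2*, *Il1rap*, *Hspa4l*, *Sgms2*, *Trem1*, *Slc7a11*, *Ifitm1* and *Sorl1*. *Acod1*, which makes the antibacterial metabolite itaconate, was at 598 against 104 CPM in WT, a log2 ratio of 2.52 (2.47 to 2.57), and at 558 against 119 CPM in the KO-labelled library, 2.23 (2.15 to 2.32). *Slc7a11*, the cystine importer of the glutathione pathway, was at 487 against 170 CPM (1.52) and 615 against 282 CPM (1.12). *Sgms2*, a sphingomyelin synthase, was at 439 against 152 CPM (1.54) and 379 against 159 CPM (1.25). All 3 were higher still in shallow neutrophil-like cells, which were taken as cells of at least 1000 and under 5000 UMIs with at least 1% of them in the 5 neutrophil genes (180 in WT, 42 in the KO-labelled library). *Acod1* was at 3393 CPM in those of WT and 6568 CPM in those of the KO-labelled library.

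Levels in the shallow neutrophil-like cells give a scale for the amounts. For each gene at 100 CPM or more in those cells and at least 5-fold over other macrophages, the excess in carrier macrophages was taken as a percent of the excess in the neutrophil-like cells. Over 29 listed genes outside the rule the percent ran from 2.69 for *Ly6g* to 17.0 for *Sorl1* in WT, with a median of 10.2. For a carrier macrophage of median depth that is 2045 UMIs, beside a median of 2356.5 UMIs per WT neutrophil-like cell. In the KO-labelled library, over 26 genes, the percent ran from 3.41 for *Hcar2* to 15 for *Wfdc21*, with a median of 7.57. That is 1424 UMIs beside 2858. The lowest neutrophil-like cell had 1005 UMIs in WT and 1660 in the KO-labelled library, where no cell of any kind had under 1618. The medians of the neutrophil-like cells are bounded by the UMI limits that chose those cells, and carriers were chosen for neutrophil UMIs. These UMI values give a scale only, and how much of a neutrophil's RNA a carrier held was not tested. Within WT, the abundant *S100a8* and *S100a9* sat low, at 6.27% and 6.43%, and the granule genes *Ngp*, *Mmp8* and *Lcn2* lower still, at 1.60%, 2.22% and 4.25%. For the KO-labelled library *S100a8* and *S100a9* were at 5.46% and 5.64%, and *Lcn2*, the 1 granule gene that could be placed there, at 8.07%, above them and above the median. *Hdc*, *Mxd1* and *G0s2* were at 14.9%, 15.4% and 16.5% in WT and at 9.57%, 10.6% and 10.6% in the KO-labelled library. The values for the 5 genes of the rule rest on a reference chosen by the same genes and are given as a description.

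Macrophage genes were level. Of 18 listed macrophage genes outside the rule, 0 in either library were 1.5-fold higher or lower in carrier macrophages. Of all genes, 3.54% were higher and 0.358% lower in WT, and 2.69% and 1.88% in the KO-labelled library. The list's median log2 ratio was −0.01 in WT and 0.02 in the KO-labelled library, beside −0.03 over all genes. *Adgre1*, the F4/80 antigen, was at 290 against 280 CPM in WT and 183 against 200 CPM in the KO-labelled library. *Csf1r*, the receptor for macrophage colony-stimulating factor, was at 245 against 221 and 268 against 261 CPM. A UMI of *Csf1r* or *Adgre1* was found in 353 of 354 WT carrier macrophages and 97 of 101 of the KO-labelled library. *Cd14*, the lipopolysaccharide co-receptor, had the largest ratio named here, 0.51 in WT and 0.17 in the KO-labelled library.

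*Gpnmb*, a glycoprotein of lysosome-rich, lipid-associated macrophages, did not mark these cells. It was at 499 CPM in WT carrier macrophages and 605 CPM in other macrophages, a log2 ratio of −0.28 (−0.32 to −0.23), and at 229 and 243 CPM in the KO-labelled library, −0.08 (−0.21 to 0.04). Of the 15 lipid-associated genes, 1 was higher and 1 lower in WT (median −0.20), and 2 were higher and 0 lower in the KO-labelled library (median 0.08). Among all genes counted, 3.54% were higher and 0.358% lower in WT, and 2.69% and 1.88% in the KO-labelled library. *Spp1*, osteopontin, was at 7832 against 9270 CPM and 4894 against 4718 CPM. *Trem2*, a lipid-sensing receptor, was at 610 against 606 and 414 against 376 CPM. *Itgax*, the integrin CD11c, was higher in the KO-labelled library (0.65). The gene higher in both was *Cd9*, a tetraspanin, at 379 against 252 CPM in WT and 379 against 230 CPM in the KO-labelled library, and shallow neutrophil-like cells had 1492 CPM of it in WT. Its WT log2 ratio was 0.53, under 1.5-fold, from 10000 UMIs on. The lower gene was the fatty acid carrier *Fabp4*, at 227 against 368 CPM in WT. In the KO-labelled library it was at 114 against 90.8 CPM, with 41.8% of its UMIs in 1 cell.

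Genes of the clearance machinery were mostly level. Among 23 receptors and bridging proteins counted in WT, 1 was higher and 1 lower (median −0.02), and among 22 in the KO-labelled library, 1 was higher and 0 lower (median −0.01). The background for all counts here was 3.54% of genes higher and 0.358% lower in WT. It was 2.69% and 1.88% in the KO-labelled library. *Mertk*, the receptor tyrosine kinase for dying cells, was at 68.0 against 64.2 CPM in WT and 49.4 against 51.1 CPM in the KO-labelled library. *Axl*, a receptor of the same family, had −0.15 in both libraries, and the scavenger receptor *Cd36* −0.44 and −0.21. The bridging protein *Mfge8* was at 8.28 against 13.9 CPM in WT (−0.75). *Olr1*, a receptor for oxidised lipoprotein, was the higher gene, at 163 against 67.6 CPM (1.27) and 137 against 72.5 CPM (0.92), and shallow neutrophil-like cells had 648 CPM of it in WT. Engulfment and actin genes had 0 of 18 past 1.5-fold in each library. Of 28 phagosome and lysosome genes in WT only *Atp6v0d2*, a proton pump subunit, passed, at 15.1 against 26.4 CPM (−0.81), and 0 of 27 did so in the KO-labelled library. *Lamp1*, a lysosomal membrane protein, had −0.05 and 0.04, and the protease *Ctsd* −0.16 and −0.03.

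Inflammatory genes under NF-kB leaned higher, more of them in WT. Of 22 counted there, 10 were higher and 0 lower (median 0.50), beside 3.54% of all genes higher. *Il1b* and *Cxcl2*, both among those higher in WT, are also on the neutrophil list and were counted there. Of 23 in the KO-labelled library, 2 were higher and 0 lower (median 0.24), beside 2.69% of all genes higher. Whether the libraries differ in this was not tested. The 2 were *Acod1* and *Ccl3*, the chemokine MIP-1α, which was at 681 against 374 CPM in WT (0.87) and 392 against 245 CPM in the KO-labelled library (0.68). *Il1a*, the cytokine released by dying cells, was at 105 against 44.1 CPM in WT (1.25) and 90.1 against 74.1 CPM in the KO-labelled library (0.28). Shallow neutrophil-like cells were high in these genes, with 707 CPM of *Il1a*, 3425 CPM of *Ccl3* and 7410 CPM of *Il1b* in WT, and the part of that RNA in the carrier macrophages' levels was not tested.

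Hypoxia and glycolysis genes had 2 of 17 higher in each library, *Egln3*, an oxygen-sensing hydroxylase, and *Slc16a3*, a lactate exporter. Over all genes, 3.54% were higher in WT and 2.69% in the KO-labelled library. *Egln3* was at 20.4 against 7.93 CPM in WT and 24.3 against 13.2 CPM in the KO-labelled library. *Slc16a3* was at 54.8 against 33.1 and 127 against 84.0 CPM. Both are present in shallow neutrophil-like cells, at 58.5 and 290 CPM in WT.

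Lower levels were found for a matrix protease and for antigen presentation genes, both within 1.5-fold, and for some cell cycle genes. *Mmp12*, macrophage elastase, was at 88.8 against 123 CPM in WT (−0.47) and 83.7 against 116 CPM in the KO-labelled library (−0.48). The 6 MHC class II genes, which present antigen to helper T cells, had medians of −0.32 and −0.28, with 0 past 1.5-fold in either library. *H2-Ab1* was at 331 against 460 CPM in WT and 363 against 456 CPM in the KO-labelled library. Among cell cycle genes 1 of 10 was lower in WT (median −0.13) and 5 of 11 in the KO-labelled library (median −0.42). Over all genes, 0.358% were lower in WT and 1.88% in the KO-labelled library. *Ube2c*, which drives exit from mitosis, was at 15.2 against 24.3 CPM in WT and 8.77 against 40.2 CPM in the KO-labelled library. *Top2a*, the topoisomerase of dividing cells, was at 23.7 against 30.3 and 20.7 against 49.8 CPM.

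**Figure D2:**
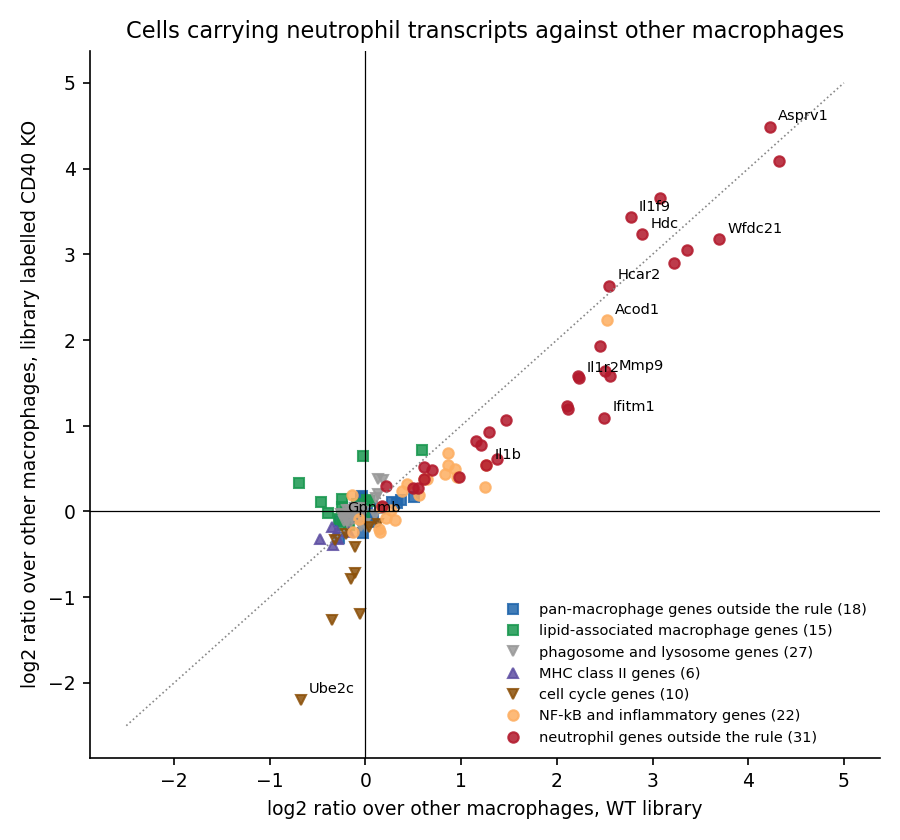
Log2 ratio of carrier over other macrophages in WT (horizontal) against the same in the KO-labelled library (vertical), 1 point per gene, for 7 gene lists. Neutrophil genes outside the rule spread to the upper right with medians of 2.12 and 1.2, while macrophage genes sit around 0 with medians of −0.01 and 0.02.

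The carrier macrophages differed among themselves in which neutrophil gene led. *S100a9* had the most UMIs of the 5 in 282 of 354 WT cells (79.7%) and in 54 of 101 of the KO-labelled library (53.5%), *S100a8* in 51 and 39, and *G0s2* in 21 and 8. All 5 genes were found together in 91 WT cells (25.7%) and 24 of the KO-labelled library (23.8%), and at least 3 of them in 343 and 90. Per 10000 UMIs, *S100a8* had a median of 9.38 in WT (0 to 74.9) and *S100a9* one of 14.9 (0 to 95.5). A neutrophil share of 0.5% or more was reached by 76 WT cells (21.5%) and 6 cells of the KO-labelled library (5.94%).

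In cells of at least 10000 UMIs, *Hdc*, which the rule did not use, was higher in each successive band of neutrophil share. This held below the limit as well as above it. In WT cells of at least 10000 UMIs, *Hdc* was at 1.80 CPM in cells with no UMI of the 5 genes, 16.5 CPM up to 0.05%, 104 CPM from 0.05% to 0.15%, then 138, 180 and 205 CPM in the 3 bands above the limit. The KO-labelled library gave 5.02, 11, 105, 162, 197 and 203 CPM, with 5 cells in the last band. With its cells from 5000 UMIs on, the order did not hold at the top. *Hdc* was then at 198 CPM from 0.25% to 0.5% and at 195 CPM in the 6 cells at 0.5% and over. From 10000 UMIs on, cells just under the limit already held over 100 CPM of *Hdc* in both libraries. The step at the limit was smaller than that below it. *Acod1* went from 30.8 CPM with no UMI of the 5 to 697 CPM at 0.5% and over in WT. Across the KO-labelled library *Acod1* ran 82.5, 104, 399, 513, 694 and 424 CPM and so was not highest in the last band, which held 5 cells there. *Gpnmb* showed no such order, at 561, 643, 523, 545, 460 and 521 CPM across the WT bands and 163, 233, 241, 264, 214 and 46.5 CPM in the KO-labelled library. *Trem2* lay between 525 and 681 CPM in WT and between 278 and 470 CPM in the KO-labelled library, where the last band was the highest.

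**Figure D3:**
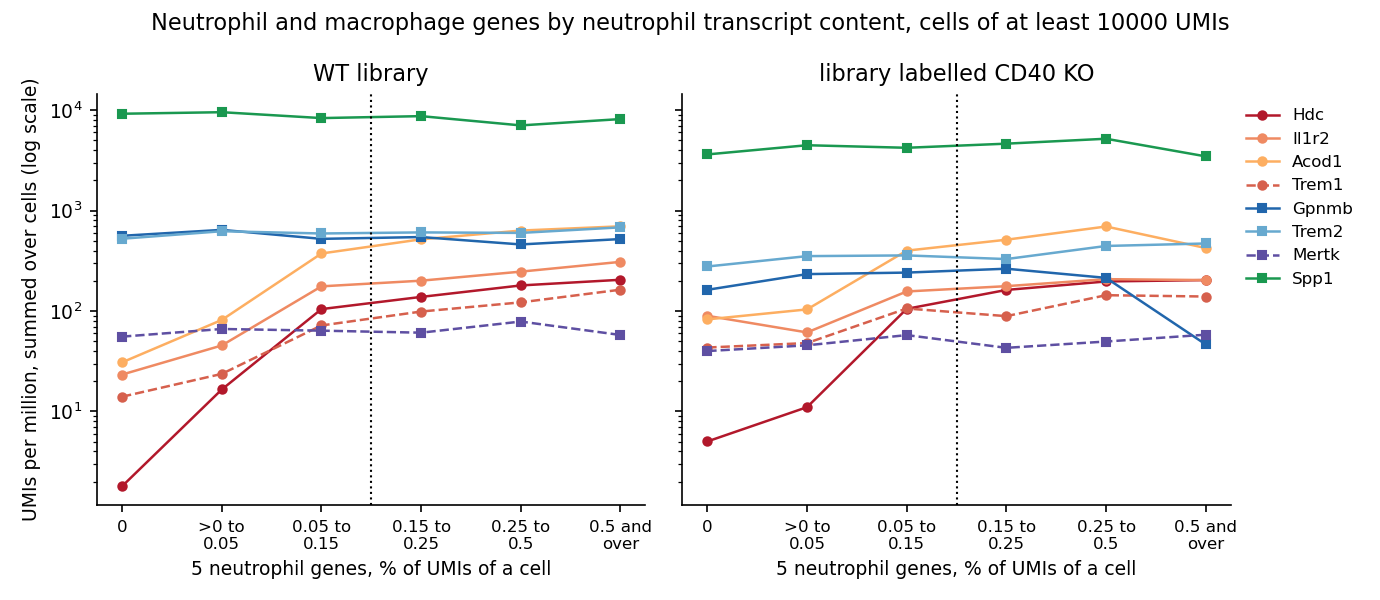
CPM (vertical, log scale) of 4 neutrophil-associated and 4 macrophage genes in macrophages of at least 10000 UMIs, in 6 bands of the percent of UMIs in the 5 neutrophil genes (horizontal), WT left and the KO-labelled library right; the dotted line is the limit of 0.15%. *Hdc* goes from 1.80 to 205 CPM in WT while *Gpnmb* stays between 460 and 643 CPM.

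Shares of cells with a UMI showed the same. A UMI of *Hdc* was found in 86.7% of WT carrier macrophages, and in 52.8% (47.5% to 58.1%) when each cell was thinned to 5000 UMIs. In other macrophages of WT the shares were 11.1% and 5.10%. Among 75 WT cells marked by fibroblast genes, which should lack *Hdc*, they were 6.67% and 1.93% at a median of 26462 UMIs, and among 92 marked by endothelial genes 15.2% and 9.60% at a median of 9869. The KO-labelled library gave 66.3% and 40.7% in carrier macrophages, against 14.4% and 5.81% in other macrophages. Its carriers include 28 cells under 7500 UMIs that gave 17.9% and 14.2% and are described further on. Carriers of at least 10000 UMIs gave 89.1% and 52.7% in WT, and 85.9% and 50.9% in the KO-labelled library. The 32 fibroblast-marked cells there gave 6.25% and 1.25% at a median of 32704 UMIs. The endothelial-marked cells there, only 6, gave 33.3% and 20.2% at a median of 10997. Carrier macrophages were above the other macrophages and both kinds of marked cells of their library. After thinning, other macrophages lay between the fibroblast-marked and endothelial-marked cells in both libraries. *Gpnmb* was found in 64.4% of thinned WT carrier macrophages and 65.2% of other macrophages.

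Eligible macrophages were all cells that passed the limits on UMIs, mitochondrial share and *Malat1* and had more UMIs of the 4 macrophage genes than of the 5 neutrophil genes. They include 405 WT cells and 537 of the KO-labelled library in neither class, with the macrophage genes under 0.15%. Carrier macrophages made up 7.55% of 4691 eligible macrophages in WT (6.81% to 8.34%, Clopper-Pearson) and 3.85% of 2625 in the KO-labelled library (3.14% to 4.66%). With those cells left out, the shares were 8.26% and 4.84%. The WT share climbed with depth. It was 2.11% of cells with 5000 to under 7500 UMIs, 7.64% from 10000 to under 20000 and 14.8% from 30000 (12.2% to 17.6%). In the KO-labelled library it was 8.70% (5.86% to 12.3%), 2.19% and 5.63% (3.91% to 7.82%) in the same bands. From 10000 UMIs on, the WT share was 9.57% (8.60% to 10.6%) and the share of the KO-labelled library 3.55% (2.78% to 4.46%). The order of the libraries thus turned over in the shallowest band. With 1 library per group, genotype and library cannot be told apart.

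**Figure D4:**
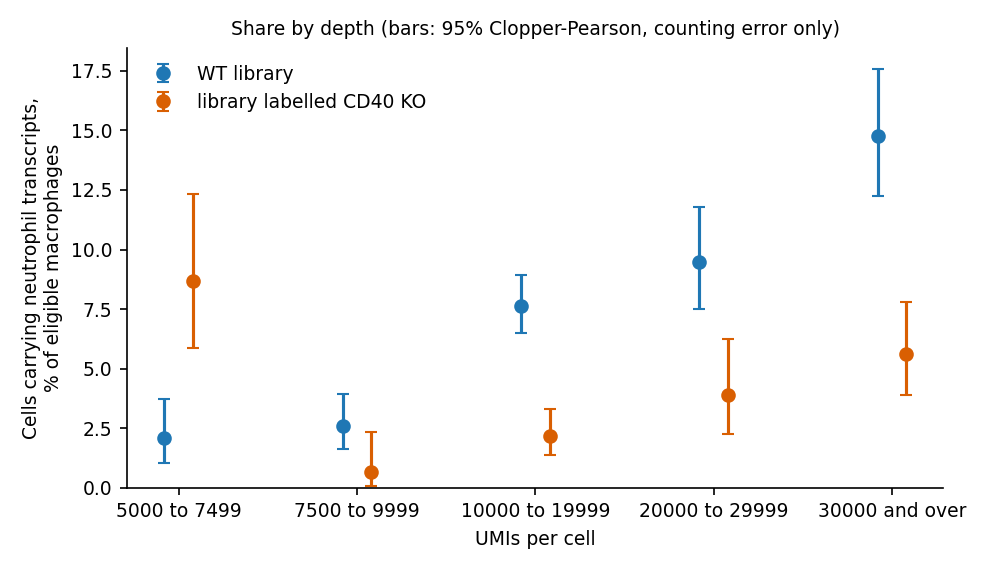
Carrier macrophages as a percent of eligible macrophages (vertical) in bands of UMIs per cell (horizontal), WT and the KO-labelled library; bars are exact 95% binomial intervals. WT goes from 2.11% to 14.8%, and the KO-labelled library has its highest share, 8.70%, in the shallowest band.

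The 28 shallow cells behind that value went against the name in their other genes and are called here by the rule alone. They had 5000 to under 7500 UMIs, a median of 0.169% in the 5 genes and of 0.541% in *Malat1*, near both limits. Their *S100a8* was at 901 CPM, close to the 1056 CPM of carrier macrophages of at least 10000 UMIs in that library, but *Hdc* was at 35.6 against 182 CPM, *Acod1* at 59.3 against 594 CPM and *Csf3r* at 35.6 against 113 CPM. A UMI of *Hdc* was found in 5 of the 28. They were high instead in *Crip1*, a LIM-domain protein gene, at 2811 against 990 CPM, and in the metallothionein *Mt1* at 2046 against 766 CPM. Cells of that library under the *Malat1* limit had 1801 CPM of *Crip1*, 1433 CPM of *Mt1* and 201 CPM of *S100a8*. Without cells under 10000 UMIs, the neutrophil list in that library had 23 genes higher and 0 lower, median 1.25.

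Among macrophages of at least 10000 UMIs, the share of carriers followed the rest of the cell's programme only in part. Cells were split into 4 groups of equal size by the share of UMIs in a gene list, from low to high. By lipid-associated genes without *Cd9*, WT carrier shares were 11.1%, 11.2%, 10.7% and 5.35% (3.93% to 7.09% in the last), so the group richest in these genes had the lowest share. The KO-labelled library went the other way, with 1.60%, 3.21%, 4.80% and 4.60%; the difference was not tested. By phagosome and lysosome genes the WT shares were 10.2%, 12.8%, 10.2% and 4.99%, and those of the KO-labelled library 1.2%, 3.41%, 5.80% and 3.8%. By cell cycle genes without *Hmgb2*, WT went from 12% to 7.13% and the KO-labelled library from 3.20% to 3.00%. MHC class II genes gave the highest share in the second highest group in both libraries, 14% and 5%.

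Between the libraries, carrier macrophages of the KO-labelled library had 491 genes at least 1.5-fold higher (6.48% of 7582) and 390 lower (5.14%) than those of WT. Other macrophages had 491 higher (6.47%) and 205 lower (2.7%). Several genes that led among carriers had like ratios among other macrophages. *Crip1* was at 282 CPM in WT carrier macrophages and 1112 CPM in those of the KO-labelled library, a log2 ratio of 1.98, beside 1.71 among other macrophages. *Mt1* and *Mt2*, the zinc-binding metallothioneins, had 1.73 and 2.17, beside 1.82 and 2.36. *Ifi27l2a*, an interferon-induced gene, was at 462 and 1588 CPM, 1.78 beside 1.89. The chemokine *Cxcl3* had 1.51 beside 1.88. *Saa3*, an acute-phase protein, had 2.30 beside 0.96, with 28.5% of its UMIs in 1 cell. *Col3a1*, a fibroblast collagen, had 3.56 beside 0.51, with 52.7% of its UMIs in 1 cell, and 1.38 once 2 cells with fibroblast genes at 0.5% of UMIs or more were left out.

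The genes lower in the KO-labelled library were led by *Arf5*, a small GTPase of vesicle traffic, at 435 and 160 CPM (−1.44, beside −1.49 in other macrophages). *Gpnmb* was at 499 and 229 CPM, −1.13 (−1.25 to −1), beside −1.32 in other macrophages. *Fabp5*, a fatty acid carrier, had −1.15 beside −1.54, and the growth factor *Igf1* −1.08 beside −1.17. *Hcar2*, the receptor for hydroxybutyrate and niacin, was at 80.3 and 33.5 CPM, −1.26 beside −1.35. By list, lipid-associated genes had 1 higher and 9 lower of 15 (median −0.79, beside −1.01 in other macrophages). Genes of *Met*-positive monocyte-derived macrophages had 7 higher and 0 lower of 10 (median 1.07 beside 0.93), among them *Plcb1*, a phospholipase, and *Ly6c2*, a monocyte antigen, at 1.82 and 1.67. Phagosome and lysosome genes had 0 higher and 5 lower of 28 (median −0.36 beside −0.41).

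Among carriers, neutrophil genes outside the rule did not move one way between the libraries. Of 32 counted, 5 were higher and 5 lower in carriers of the KO-labelled library (median 0.05), beside 6.48% of all genes higher and 5.14% lower. In other macrophages of that library, 8 of 20 counted were higher and 0 lower (median 0.38, beside 0.04 over all genes). There, 6.47% of all genes were higher and 2.7% lower. *Hdc* had a log2 ratio of 0.04 (−0.12 to 0.19) among carriers, to which the values that follow also belong. *Stfa2l1* was at 49.1 and 20.7 CPM (−1.25) and *Lcn2* at 87.9 and 43.4 CPM (−1.02). Among the inflammatory genes, 3 were higher and 2 lower of 22 (median 0.17), and of the clearance receptors and bridging proteins 2 were higher and 1 lower of 22 (median −0.21). Both counts stand beside the same 6.48% and 5.14% of all genes. *Thbs1*, a matrix protein that bridges dying cells to CD36, was at 614 and 1423 CPM (1.21), beside 1.06 in other macrophages.

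Signs of a mixture of cells were measured beside these results. A doublet score whose own threshold marked 0 cells was used at a fixed rate. It marked 39 of 354 WT carrier macrophages (11%) against 7.30% of other macrophages, and 13 of 101 (12.9%) against 11.6% in the KO-labelled library. With the marked cells removed, the *Hdc* log2 ratio was 3.21 in WT and 3.23 in the KO-labelled library. The part of doublets that the score misses, and of free RNA, was not tested. A gradient ran on beyond the rule: 107 WT cells and 55 of the KO-labelled library of at least 5000 UMIs had 0.15% or more in the 5 neutrophil genes and at least as many UMIs of them as of the 4 macrophage genes. Those WT cells had 5494 CPM of *S100a8*, 267 CPM of *Hdc* and still 3846 CPM of *Apoe*, at a median of 12138 UMIs. The doublet score marked 3 of the 107 (2.80%) and 1 of the 55 (1.82%). That is beside 6.47% of all scored cells in WT and 6.34% in the KO-labelled library. How well the score finds mixtures of macrophage and neutrophil was not tested.

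Markers of other cell types were summed over each list. The 10 T and NK cell markers summed to 1.02 CPM in WT carrier macrophages, with 8 at 0, against 4.02 CPM in other macrophages, and all 10 were at 0 in carriers of the KO-labelled library. B cell markers summed to 10.6 against 19.1 CPM in WT and 13.9 against 15 CPM in the KO-labelled library, and dendritic cell markers to 20.9 against 26.5 and 51.0 against 43.6 CPM. Since *Hdc* is also a mast cell gene, the mast cell and basophil genes *Mcpt4*, *Fcer1a*, *Ms4a2*, *Cma1* and *Tpsb2* were examined with 4 more and had no UMI in the carrier macrophages of either library. Of the 4, *Kit* was at 1.59 against 1.57 CPM in WT and 1.99 against 1.35 CPM in the KO-labelled library, and *Cpa3*, *Gata2* and *Mcpt8* had at most 1 UMI in the carriers of each library. Fibroblast markers summed to 318 against 359 CPM in WT and 562 against 370 CPM in the KO-labelled library, where 2 carriers held fibroblast genes at 0.5% of UMIs or more. Endothelial markers summed to 248 against 400 CPM in WT and 127 against 113 CPM in the KO-labelled library, most of it *Fabp4*. Erythrocyte and platelet markers summed to 2038 against 2153 CPM and 2749 against 2482 CPM, most of it *Pf4*, which is also on the macrophage list, at 1991 and 2676 CPM in the carriers. Their part in the results was not tested.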

How the data were processed

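The deposited files hold raw UMI counts per gene and cell barcode for 2 libraries; per the file headers, Cell Ranger 7.0.1 made them. STAR and mm10 stand in the submitters' processing notes, and the sources used here do not say whether intronic reads were counted. The members and gene lists were chosen with earlier results of these data known, and the limits for neutrophil-like cells, depth bands, groups by list share and fibroblast genes were set after the data were seen.

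UMIs were summed per class and library and given as CPM. Log2 ratios have exact conditional 95% intervals, CPM exact Poisson and shares exact Clopper-Pearson intervals. Counts of genes took a mean of 10 CPM or more and 1.5-fold; the rule's genes, *Malat1* and mitochondrial genes were left out of counts. Named genes were the 12 most different each way at 50 CPM or more, all neutrophil genes, and the 2 extremes each way of other lists; further genes were chosen after their values were seen. Some genes that this rule takes are not reported here. Ribosomal, sex-linked, haemoglobin, immunoglobulin and unnamed genes were not named. Thinned shares are exact expectations at 5000 UMIs per cell. On simulated counts for WT carriers against other macrophages (7489 genes), all 2-fold changes were recovered and 0.0137% of unchanged genes passed. The unchanged genes that passed were 0.593% in the KO-labelled library and 0.941% between the libraries among carriers. These simulated counts held counting error only, with no spread between cells or libraries, so they check the calculation and not the spread of the data.

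Scrublet as run in scanpy 1.11.5 marked 0 cells in both libraries at its own threshold and so did not work; a fixed rate of 0.8% per 1000 cells served as an alternative, and no doublets were removed otherwise. Alternatives covered the rule's limits, depth, filters, weighting and scaling. Promoter windows came from a RefSeq table on GRCm38.p6. Tables were made with pandas 2.3.3 and numpy 2.4.6 under Python 3.11.15, intervals with scipy 1.17.1 and figures with matplotlib 3.10.9.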

Additional observations from a re-analysis of the deposited data

Results flagged for a closer look

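Genes past 1.5-fold in opposite directions in the 2 libraries, with counting intervals apart from 0, were taken for a closer look. *Col3a1*, a collagen, had a log2 ratio of carrier over other macrophages of −2.01 in WT and 1.05 in the KO-labelled library, where 1 cell held 52.7% of its UMIs. *Prtn3*, the proteinase 3 of primary granules, had 0.62 in WT, at 12.8 against 8.34 CPM, and −0.59 in the KO-labelled library, at 9.56 against 14.4 CPM. These differences between libraries were not tested.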

How the results depend on the processing

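No paired analysis was possible because there is 1 library per group. The share of carrier macrophages, 7.55% in WT and 3.85% in the KO-labelled library, was 4.03% and 1.26% at a limit of 0.3%, 1.17% and 0.152% at 0.6%, and 4.54% and 2.13% when macrophage genes had to reach 3 times the neutrophil genes. It was 9.57% in WT from 10000 UMIs and 4.88% in the KO-labelled library without the *Malat1* limit. Over carrier and other macrophages alone, an alternative added after seeing the data, it was 8.26% and 4.84%. Genes past the fold in WT, 294, numbered 1092 at 0.6%, 112 at 50 CPM, 8752 with no CPM minimum, 123 at 2-fold and 615 with cells thinned. In the KO-labelled library, 348 became 819 at 0.3%, 4117 at 0.6%, 754 at 3 times, 617 with cells weighted equally, 72 at 50 CPM, 10436 with no minimum, 109 at 2-fold, 1240 thinned and 661 against macrophages matched on UMIs. Between the libraries, 881 became 1375 at 0.3%, 4143 at 0.6%, 299 at 50 CPM, 7600 with no minimum, 203 at 2-fold and 1886 thinned. The between-library values of *Saa3* and *Ly6c2* turned to −0.92 and −1.94 at 0.6%, where 4 cells of the KO-labelled library were left. Of 1170 single-gene values over 51 genes, 858 stayed within the counting interval of the reported value, 310 moved outside it, and 2 turned over. Leaving out carriers with fibroblast genes, chosen after seeing the data, gave a share of 3.77% and counts of 336 and 867.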
